A study of Homo sapiens with 8 samples.

Results

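SR proteins and hnRNP proteins are the main families of RNA-binding proteins that steer the choice of splice sites. The genes described here are the rows of the deposited expression table named SRSF followed by a number, or HNRNP followed by a letter and further letters or digits. HNRNPA2B1, HNRNPC and pseudogene names were left out by that rule, which used no measured value. It found 35 of the 26830 genes in the table, 12 SR protein genes and 23 hnRNP genes. Polyadenylated RNA was sequenced from 8 libraries of NOMO-1 and MOLM-13, established human acute myeloid leukaemia lines, in 4 groups of 2 libraries. NOMO-1 shALKBH5 (replicates 2 and 3) and MOLM-13 shALKBH5 (replicates 1 and 3) carried a lentiviral short hairpin RNA, hairpin #1, against ALKBH5, an enzyme that removes the m6A methyl mark from RNA. NOMO-1 shNS (replicates 1 and 3) and MOLM-13 shNS (replicates 1 and 3) carried the control hairpin. All groups were selected with puromycin, for a time on which the labels' texts differ, and the protocol texts also name an FTO virus and a drug treatment absent from every sample label. Only 1 hairpin was used. No label states whether replicates are separate cultures, and the p-values given here therefore rest on a spread between libraries that may be technical.

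SR proteins carry an RNA recognition motif and a tail rich in arginine and serine, the RS domain. They bind exonic enhancers and help the spliceosome to define an exon, and kinases that phosphorylate the RS domain govern their entry into the nucleus and their activity. hnRNP proteins coat nascent transcripts, and many of them repress exons, often in competition with SR proteins. Both families also act in export, translation and decay of mRNA, and many of their genes adjust their own level by splicing in a poison exon, which sends the transcript to nonsense-mediated decay. SRSF2 is recurrently mutated in myeloid malignancies, and several hnRNP proteins read RNA regions that m6A opens.

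The promoters of a few of these genes are shown because the genes moved differently although they belong to the same families: HNRNPAB was lower after the knockdown in both lines, and SRSF6, unlike its relative SRSF3, was not below its controls in NOMO-1, though it was in MOLM-13. Each sequence holds the 250 bases before the RefSeq start (GRCh38.p14), read 5′ to 3′ on the plus strand, and capitals mark the motifs CCAAT (or its reverse complement) and TATAAA. SRSF3 lies on chromosome 6, and its window is chr6:36594112-36594361. The SRSF6 window is chr20:43457646-43457895, and that of HNRNPAB is chr5:178204283-178204532.
SRSF3: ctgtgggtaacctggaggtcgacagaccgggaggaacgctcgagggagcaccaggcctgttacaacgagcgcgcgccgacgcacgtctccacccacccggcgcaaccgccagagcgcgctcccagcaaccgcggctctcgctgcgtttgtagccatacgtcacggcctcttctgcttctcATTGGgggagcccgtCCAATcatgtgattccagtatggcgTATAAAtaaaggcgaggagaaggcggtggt
SRSF6: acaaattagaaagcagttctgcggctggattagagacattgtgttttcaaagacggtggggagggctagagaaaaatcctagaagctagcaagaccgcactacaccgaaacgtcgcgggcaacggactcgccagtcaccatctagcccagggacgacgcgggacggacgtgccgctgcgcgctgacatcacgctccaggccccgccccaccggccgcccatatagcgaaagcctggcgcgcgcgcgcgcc
HNRNPAB: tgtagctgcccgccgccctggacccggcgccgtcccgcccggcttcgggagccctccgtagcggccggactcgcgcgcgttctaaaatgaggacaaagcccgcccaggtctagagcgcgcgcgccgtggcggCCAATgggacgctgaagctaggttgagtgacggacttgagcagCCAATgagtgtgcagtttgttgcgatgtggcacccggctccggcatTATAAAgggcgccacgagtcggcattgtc
The windows of SRSF3 and HNRNPAB each hold CCAAT at 2 places and TATAAA once, and that of SRSF6 holds none of the motifs searched. CCAAT also stood in windows of SRSF8, HNRNPH2 and HNRNPLL, which were not below their controls in NOMO-1. Among other genes lower in both lines, windows of HNRNPK and HNRNPL, for instance, held it. No window of SRSF1, SRSF7, SRSF11, HNRNPD, HNRNPH1 or HNRNPM did, though these genes were also lower in both lines. Whether these motifs bear on the changes was not tested. RefSeq windows were found for 32 of the 35 genes, 46 windows in all, since some genes have several starts. On both strands, CCAAT stood in 21 of the 46 windows (45.7%) against 32% of 35116 windows of all genes, and the E-box CACGTG in 7 (15.2%) against 6.34%. The ETS motif CCGGAAG stood in 10.9% of the windows against 8.52%, TATAAA in 10.9% against 10.7%, and the NRF1 motif in 0% against 1.03%. The windows had a median of 64.8% G and C against 58% in all windows. These are descriptions of the letters, not of binding.

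ALKBH5 itself stood at 15.1 and 14.2 TPM (a share of all transcripts, scaled by gene length) in NOMO-1 shALKBH5, against 70.4 and 71.8 TPM in NOMO-1 shNS. It stood at 9.45 and 7.35 TPM in MOLM-13 shALKBH5, against 45.7 and 45.8 TPM in MOLM-13 shNS. The myeloid genes SPI1, CEBPA, CD33 and PTPRC were present in all 8 libraries, while EPCAM, HBA1 and MS4A1, which mark epithelial, erythroid and B cells, were listed at 0 in each. Other markers went the other way. The myeloid genes MPO, FLT3 and CD14 lay between 0.07 and 0.55 TPM in the NOMO-1 libraries. NCAM1, read as a lymphoid marker, lay between 58.7 and 90.0 TPM in MOLM-13. HBB, an erythroid gene, stood at 14.0 TPM in MOLM-13 shALKBH5 replicate 3 and at 0 in every other library. How deeply each library was sequenced is unknown. The knockdown libraries of MOLM-13 differed most from each other: on the log2 scale, libraries of the same group differed with an SD across genes of 0.53 there and 0.133 in MOLM-13 shNS, and 0.184 in NOMO-1 shALKBH5 and 0.153 in NOMO-1 shNS. In these bulk samples, fewer cells of a type and less RNA per cell cannot be told apart.

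Together the 35 genes made up 0.583% and 0.648% of all TPM in NOMO-1 shALKBH5, against 0.91% and 0.916% in NOMO-1 shNS. In MOLM-13 shALKBH5 they made up 0.473% and 0.36%, against 0.871% and 0.848% in MOLM-13 shNS. Both knockdown groups thus lay below their controls without overlap. The hnRNP sum was 4147 and 4641 TPM in NOMO-1 shALKBH5, against 6846 and 6920.2 TPM in NOMO-1 shNS, and 3537 and 2737 TPM in MOLM-13 shALKBH5, against 6763 and 6552 TPM in MOLM-13 shNS. The SR sum was 1683 and 1843 TPM, against 2252 and 2244 TPM, in NOMO-1, and 1191 and 865 TPM, against 1951 and 1924 TPM, in MOLM-13, each time shALKBH5 before shNS. The hnRNP genes outweighed the SR genes by 2.46 and 2.52 in NOMO-1 shALKBH5, against 3.04 and 3.08 in NOMO-1 shNS, and by 2.97 and 3.16 in MOLM-13 shALKBH5, against 3.47 and 3.41 in MOLM-13 shNS. In both lines this ratio of sums was lower in each knockdown library than in each control library. Abundant genes weigh most in it, and the hnRNP sum lacks HNRNPA2B1 and HNRNPC. HNRNPA1 alone stood at 704 and 580.4 TPM in MOLM-13 shALKBH5, against 1841 and 1751 TPM in MOLM-13 shNS. The ratio without HNRNPA1 was not computed. Gene by gene, the median log2 fold change in MOLM-13 was -1.18 over the tested SR genes and -0.97 over the tested hnRNP genes. In NOMO-1 these medians were -0.44 and -0.66.

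Of the 35 genes, 32 reached at least 1 TPM in at least 2 libraries and were tested among the 14302 genes that did so (11 SR and 21 hnRNP genes). SRSF12, an SR protein of restricted expression, was below that level, at 0.18 and 0.25 TPM in NOMO-1 shALKBH5, 0.03 and 0.03 TPM in NOMO-1 shNS, 0.35 and 0.34 TPM in MOLM-13 shALKBH5, and 0.12 and 0.05 TPM in MOLM-13 shNS. It was higher in each knockdown library than in the controls of its line, at levels too low for a test. HNRNPCL3 was listed at 0 in all libraries and HNRNPCL4 at 0 to 0.13 TPM, and both belong to a cluster of intronless HNRNPC-like copies. A fold change below is a difference of log2(TPM + 1), which understates the change of low genes, and a gene was called where limma's adjusted p over all 14302 genes was under 0.05.

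In NOMO-1, 17 of the 32 genes were lower in shALKBH5 than in shNS (53.1%, against 15.0% of all genes tested), and 1 was higher (against 28.6%). Among all genes of at least 100 TPM on average, to which most of these genes belong, 23.0% were lower and 25.7% higher in NOMO-1. The median log2 fold change was -0.59 over the 32 genes and 0.16 over all genes. The hnRNP genes held 13 of the lower calls (of 21, median -0.66) and the SR genes 4 (of 11, median -0.44). The genes called lower include those for the core SR protein SRSF1 and for HNRNPA1, the most abundant of the 35 genes. The groups did not overlap, with shALKBH5 lower, for 26 of the 32 genes, against 30.5% of all genes.

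In MOLM-13, 25 of the 32 genes were lower in shALKBH5 than in shNS (78.1%, against 31.2% of all genes tested and 38.4% of those of at least 100 TPM). None was higher by limma's adjusted p, against 10.6% of all genes and 13.3% of those of at least 100 TPM, and none was higher at an unadjusted p under 0.05. The median log2 fold change was -1.0 over the 32 genes and -0.18 over all genes. The lower calls took in 17 of 21 hnRNP genes (median -0.97) and 8 of 11 SR genes (median -1.18). The groups did not overlap, with shALKBH5 lower, for 29 of the 32 genes, against 46.2% of all genes.

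The genes lower in both lines numbered 16 of 32 (against 10.4% of all genes and 16.8% of those of at least 100 TPM): SRSF1, SRSF2, SRSF7 and SRSF11, and HNRNPA1, HNRNPAB, HNRNPD, HNRNPF, HNRNPH1, HNRNPH3, HNRNPK, HNRNPL, HNRNPM, HNRNPR, HNRNPU and HNRNPUL1. On TPM as deposited, a further 9 were called in MOLM-13 and not in NOMO-1, namely SRSF3, SRSF4, SRSF6, SRSF10, HNRNPA0, HNRNPA3, HNRNPDL, HNRNPH2 and HNRNPUL2. Across the 32 genes the fold changes of the lines correlated with r = 0.64 and rho = 0.57, and across all 14302 genes with r = 0.49 and rho = 0.45. These correlations are across genes, which are not independent replicates.

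The size of these counts depends on what the values are set against. A scaling by median of ratios, which centres the bulk of the genes, moved the median fold change of all genes by -0.15 in NOMO-1 and by 0.23 in MOLM-13. Under it 24 of the 32 genes were lower in NOMO-1 (against 25.1% of all genes and 38.2% of those of at least 100 TPM, with 24.6% of all genes higher) and 22 in MOLM-13 (against 25.2% and 30.5%, with 25.4% higher), and 15 of the 16 shared genes stayed lower in both lines, all but HNRNPAB. In all, 21 of the 32 genes were then lower in both lines, against 14.1% of all genes and 21.1% of those of at least 100 TPM. Of the 9 genes called in MOLM-13 and not in NOMO-1 before, only SRSF6 kept that pattern. With each line fitted alone, 24 were lower and 4 higher in NOMO-1 (against 23.6% and 42.6% of all genes, and 37.5% lower among those of at least 100 TPM). In MOLM-13, fitted alone, 15 were lower (against 11.7% of all genes and 15.0% of those of at least 100 TPM), while 3.17% of all genes were higher. For the fits that follow, the shares of all genes were not counted, so these counts cannot be set against them. Leaving out 1 library left 7 to 24 lower in NOMO-1: 7 without shALKBH5 replicate 2, 8 without either shNS library, 11 without shALKBH5 replicate 3, 14 without either MOLM-13 shNS library and 24 without either MOLM-13 shALKBH5 library, since the lines share their estimate of spread. In MOLM-13 it left 18 to 29. Of the 17 lower calls in NOMO-1, 7 held in every alternative tried (SRSF11, HNRNPA1, HNRNPCL2, HNRNPD, HNRNPH3, HNRNPM and HNRNPU), and the other 10 were lost in at least 1 alternative, each of them when NOMO-1 shALKBH5 replicate 2 was left out. Of the 25 lower calls in MOLM-13, 15 held in every alternative, and the other 10 (SRSF4, SRSF6, HNRNPA0, HNRNPAB, HNRNPF, HNRNPH2, HNRNPK, HNRNPL, HNRNPUL1 and HNRNPUL2) were lost when the line was fitted alone.

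**Figure D1:**
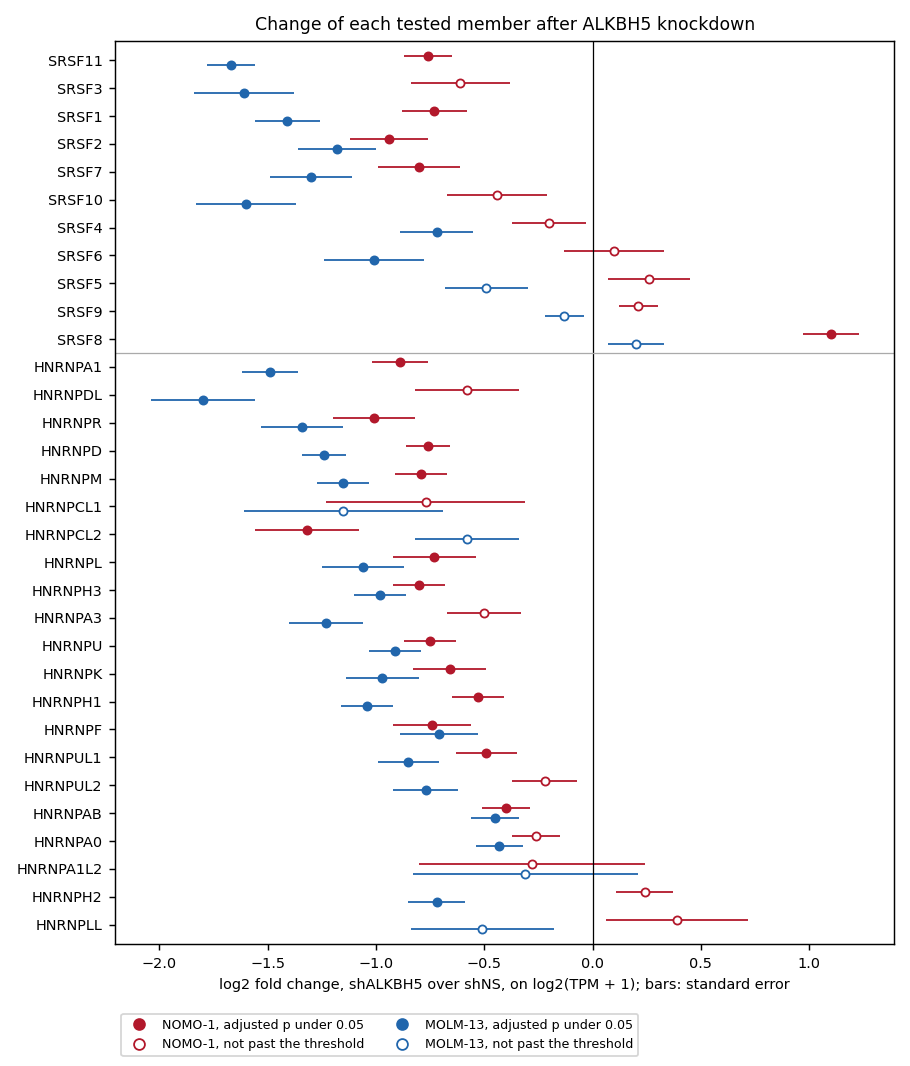
Log2 fold change (shALKBH5 over shNS, on log2(TPM + 1)) of the 32 tested genes in NOMO-1 (red) and MOLM-13 (blue), with standard errors; filled circles are past the threshold of 0.05. Of the filled circles, 17 in NOMO-1 and 25 in MOLM-13 lie left of 0, and only SRSF8 in NOMO-1 lies right of it.

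Other features also differed between knockdown and control libraries. A list of cell division genes summed to 1698 and 2201 TPM in NOMO-1 shALKBH5, against 6315 and 6419 TPM in NOMO-1 shNS, and to 359 and 252 TPM in MOLM-13 shALKBH5, against 1961 and 2003 TPM in MOLM-13 shNS. Of its 19 tested genes 18 were lower in NOMO-1 (against 15.0% of all genes) and 19 in MOLM-13 (against 31.2%). Small structural RNAs, abundant short RNAs that poly(A) selection should remove, summed to 4567 and 9302 TPM in MOLM-13 shALKBH5, against 227 and 525 TPM in MOLM-13 shNS, and to 438 and 516 TPM, against 272 and 222 TPM, in NOMO-1 shALKBH5 and shNS. Myeloid markers summed to 20424 and 12971 TPM in MOLM-13 shALKBH5, against 10578 and 10026 TPM in MOLM-13 shNS, and to 2119 and 2125 TPM, against 1103 and 1140.0 TPM, in NOMO-1, and most of each of these sums but the NOMO-1 controls was LYZ, the lysozyme gene. Without LYZ the sums were 1161 and 849.8 TPM, against 1453 and 1533 TPM, in MOLM-13, and 587 and 617 TPM, against 639 and 640.1 TPM, in NOMO-1 (shALKBH5 against shNS). Of the 10 myeloid genes, 2 were higher and 4 lower in MOLM-13, against 10.6% and 31.2% of all genes. In NOMO-1, 2 were higher and 2 lower, against 28.6% and 15.0% of all genes. With 10 genes, these counts lie near those shares. Interferon-stimulated genes summed to 1653 TPM in MOLM-13 shALKBH5 replicate 1 and 42.0 TPM in replicate 3, against 90.0 and 82.4 TPM in MOLM-13 shNS. These knockdown libraries thus lay on opposite sides of their controls. In NOMO-1 the sums were 514 and 506 TPM in shALKBH5, against 350.2 and 362 TPM in shNS. The part of these features in the results was not tested.

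Against the mean of their own controls, the median log2 difference of the 32 genes was -0.65 and -0.51 in the NOMO-1 shALKBH5 libraries, where that of all genes was 0.14 and 0.17. In MOLM-13 it was -0.77 in shALKBH5 replicate 1 and -1.20 in replicate 3, where that of all genes was -0.06 and -0.33. Replicate 3 of MOLM-13 shALKBH5 thus had the lower values: 30 of the 32 genes were lower there than in replicate 1, as were 76.3% of all genes.

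Among the shuttling SR proteins, SRSF1, the founding member of the family and a proto-oncoprotein, stood at 139.5 and 165 TPM in NOMO-1 shALKBH5, against 255 and 249 TPM in NOMO-1 shNS. In MOLM-13 shALKBH5 it stood at 71.4 and 55.0 TPM, against 167 and 169.7 TPM in MOLM-13 shNS. Neither line's groups overlapped, and SRSF1 fell in both: the log2 fold change was -0.73 in NOMO-1 (SE 0.15, adjusted p = 0.0089) and -1.41 in MOLM-13 (SE 0.15, adjusted p = 0.001). The gene lies on chromosome 17, from 58003360 to 58007346, on the minus strand (GENCODE release 29, GRCh38, as for all gene positions here). SRSF3, the smallest SR protein, which links splicing to export and to the choice of poly(A) site, stood at 194 and 216 TPM in NOMO-1 shALKBH5, against 308 and 316 TPM in NOMO-1 shNS. In MOLM-13 shALKBH5 it stood at 125 and 73.5 TPM, against 292 and 295 TPM in MOLM-13 shNS. SRSF3 was lower in every knockdown library, and it fell in MOLM-13 (log2 fold change -1.61, SE 0.23, adjusted p = 0.0031), while the value in NOMO-1, -0.61, had an adjusted p of 0.077. SRSF7, a close relative of SRSF3 with a zinc knuckle, stood at 118 and 129 TPM, against 212 and 218 TPM, in NOMO-1 shALKBH5 and shNS, and at 76.1 and 49.3 TPM, against 155 and 150.0 TPM, in MOLM-13 shALKBH5 and shNS. It fell by 0.80 in NOMO-1 (adjusted p = 0.018) and by 1.30 in MOLM-13 (adjusted p = 0.0035) on the log2 scale. In NOMO-1 the calls of SRSF1 and SRSF7 were lost when single NOMO-1 libraries were left out, with adjusted p up to 0.067 and 0.11.

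SRSF2, an SR protein that stays in the nucleus, stood at 178 and 196 TPM in NOMO-1 shALKBH5, against 359 and 361 TPM in NOMO-1 shNS. In MOLM-13 shALKBH5 it stood at 169.7 and 113 TPM, against 316 and 316 TPM in MOLM-13 shNS. SRSF2 fell in both lines, with log2 fold changes of -0.94 (SE 0.18, adjusted p = 0.0081) and -1.18 (SE 0.18, adjusted p = 0.004). In NOMO-1 the adjusted p of SRSF2 was 0.051 to 0.061 without shNS replicate 1, shNS replicate 3 or shALKBH5 replicate 2. SRSF8, an intronless copy that arose from an SRSF2 transcript, went the other way in NOMO-1, at 8.28 and 9.89 TPM in shALKBH5 against 3.41 and 3.97 TPM in shNS. Its log2 fold change was 1.10 (SE 0.13, adjusted p = 0.0013). SRSF8 was the only gene of the set called higher in NOMO-1 with all 8 libraries fitted and the filter at 1 TPM. It was called higher in each of the 16 alternatives tried. In MOLM-13, SRSF8 stood at 7.87 and 7.28 TPM in shALKBH5, against 6.64 and 6.26 TPM in shNS. The groups were apart there too, but the log2 fold change of 0.20 had an adjusted p of 0.25 on TPM as deposited. In MOLM-13, SRSF8 was called higher in 2 of 16 alternatives, among them median-of-ratios scaling (0.50, adjusted p = 0.021). Reads of SRSF8 and SRSF2 may be assigned to either gene where they are alike, so the SRSF8 level is uncertain.

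SRSF4, SRSF5 and SRSF6 carry a pair of RNA recognition motifs and long RS domains. SRSF6, linked to epidermal homeostasis and wound healing, stood at 221 and 243 TPM in NOMO-1 shALKBH5, against 221 and 212 TPM in NOMO-1 shNS. In MOLM-13 shALKBH5 it stood at 142 and 83.7 TPM, against 223 and 219 TPM in MOLM-13 shNS. The NOMO-1 groups lay side by side, with a log2 fold change of 0.10 (95% interval -0.46 to 0.66, adjusted p = 0.77), which was -0.10 after median-of-ratios scaling, and in MOLM-13 SRSF6 fell by 1.01 on the log2 scale (adjusted p = 0.015, and up to 0.086 over the alternatives). SRSF5 stood at 287 and 292 TPM, against 243 and 241 TPM, in NOMO-1 shALKBH5 and shNS, and at 159 and 105 TPM, against 189 and 176 TPM, in MOLM-13 shALKBH5 and shNS. Neither value passed the test: the log2 fold change of SRSF5 was 0.26 in NOMO-1 (95% interval -0.19 to 0.71, adjusted p = 0.3) and -0.49 in MOLM-13 (95% interval -0.94 to -0.05, adjusted p = 0.075). With NOMO-1 fitted alone by limma, SRSF5 was called higher there (adjusted p = 0.0035), as were 42.6% of all genes. SRSF4 stood at 119 and 127 TPM, against 141 and 142 TPM, in NOMO-1, and at 63.0 and 43.7 TPM, against 89.1 and 85.3 TPM, in MOLM-13, again shALKBH5 before shNS. It fell in MOLM-13 (-0.72, adjusted p = 0.016, and up to 0.096 over the alternatives), and its log2 fold change in NOMO-1 was -0.20 (95% interval -0.61 to 0.21, adjusted p = 0.38).

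SRSF9 is built like SRSF1 and can stand in for it at some exons. It stood at 258 and 282 TPM in NOMO-1 shALKBH5, against 239 and 227 TPM in NOMO-1 shNS, and at 311 and 283 TPM in MOLM-13 shALKBH5, against 323 and 326 TPM in MOLM-13 shNS. SRSF9 had the narrowest intervals of the SR genes and passed the test in neither line: its log2 fold change was 0.21 in NOMO-1 (95% interval -0.02 to 0.44, adjusted p = 0.12) and -0.13 in MOLM-13 (95% interval -0.36 to 0.10, adjusted p = 0.33). With NOMO-1 fitted alone by limma, SRSF9 was called higher there (adjusted p = 0.037), as were 42.6% of all genes. The MOLM-13 value was 0.20 after median-of-ratios scaling and 0.10 after quantile scaling, so its direction there depends on the scaling. The gene lies on chromosome 12, from 120461668 to 120469793, on the minus strand.

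SRSF10 and SRSF11 are atypical members. SRSF10, a repressor of splicing when its RS domain loses phosphate, as after heat shock, stood at 49.4 and 56.5 TPM, against 71.6 and 72.8 TPM, in NOMO-1 shALKBH5 and shNS. In MOLM-13 it stood at 20.8 and 12.2 TPM in shALKBH5, against 51.8 and 49.4 TPM in shNS. It fell by 1.60 in MOLM-13 (SE 0.23, adjusted p = 0.0028), while in NOMO-1 its log2 fold change of -0.44 had an adjusted p of 0.16. SRSF11, known for its part in the inclusion of small exons in neurons, stood at 111 and 125 TPM in NOMO-1 shALKBH5, against 199 and 201 TPM in NOMO-1 shNS, and at 45.2 and 38.5 TPM in MOLM-13 shALKBH5, against 139 and 132 TPM in MOLM-13 shNS. Its log2 fold change was -0.76 in NOMO-1 (SE 0.11, adjusted p = 0.003) and -1.67 in MOLM-13 (SE 0.11, adjusted p = 0.0003), the smallest p of the 32 genes in MOLM-13. It was called lower in all 16 alternatives in both lines.

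**Figure D2:**
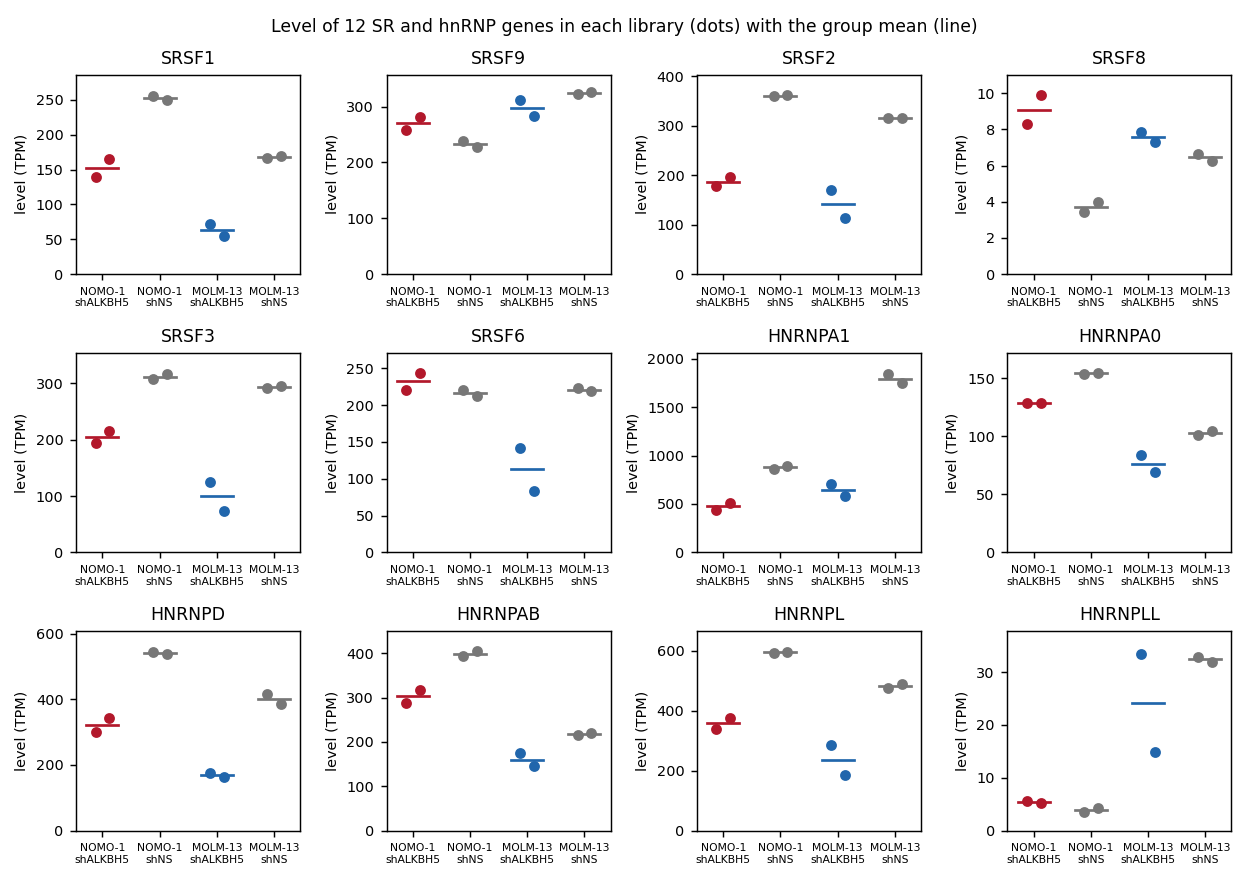
Level in TPM of 12 of the genes in each library (dots, 2 per group), with the group mean as a line; knockdown groups are in colour and controls in grey, NOMO-1 left of MOLM-13. SRSF1, SRSF2, SRSF3, HNRNPA1, HNRNPD and HNRNPL are lower in both knockdown groups, while SRSF9 stays between 227 and 326 TPM in all 8 libraries and SRSF8 is higher in NOMO-1 shALKBH5.

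Of the A and B type hnRNP proteins, which carry a pair of RNA recognition motifs and a glycine-rich tail, HNRNPA1 was the most abundant among the genes selected by name, which leave out HNRNPA2B1. It is the textbook antagonist of SRSF1 in the choice of 5′ splice sites. HNRNPA1 (chromosome 12, 54280193 to 54287088, plus strand) stood at 440.3 and 509 TPM in NOMO-1 shALKBH5, against 865 and 891 TPM in NOMO-1 shNS, and at 704 and 580.4 TPM in MOLM-13 shALKBH5, against 1841 and 1751 TPM in MOLM-13 shNS. It fell in both lines, with log2 fold changes of -0.89 in NOMO-1 (SE 0.13, adjusted p = 0.0025) and -1.49 in MOLM-13 (SE 0.13, adjusted p = 0.00055). Its copy HNRNPA1P10, outside the set by its name, kept a similar ratio to it, 0.472 and 0.45 against 0.473 and 0.466 in NOMO-1, and 0.42 and 0.384 against 0.469 and 0.532 in MOLM-13 (shALKBH5 against shNS), so part of the reads may belong to either. HNRNPA3, a relative of HNRNPA1, stood at 420.1 and 461 TPM, against 623 and 627 TPM, in NOMO-1, and at 179 and 125 TPM, against 354 and 349 TPM, in MOLM-13 (shALKBH5 against shNS). It fell by 1.23 in MOLM-13 (SE 0.17, adjusted p = 0.0026), and in NOMO-1 its value of -0.50 had an adjusted p of 0.052.

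HNRNPA0, encoded by a gene without introns and known to bind AU-rich mRNAs, stood at 129 and 129 TPM in NOMO-1 shALKBH5, against 154 and 155 TPM in NOMO-1 shNS, and at 83.6 and 69.0 TPM in MOLM-13 shALKBH5, against 101 and 105 TPM in MOLM-13 shNS. HNRNPAB stood at 288 and 317 TPM, against 393 and 404 TPM, in NOMO-1, and at 174 and 146 TPM, against 216 and 219.5 TPM, in MOLM-13 (shALKBH5 against shNS). Neither line's groups overlapped for these genes, and their fitted values lay nearer to 0 than the median of the 32 genes: HNRNPAB was at -0.40 (adjusted p = 0.029) and -0.45 (adjusted p = 0.02) in NOMO-1 and MOLM-13, and HNRNPA0 at -0.26 (adjusted p = 0.1) and -0.43 (adjusted p = 0.022). The NOMO-1 call of HNRNPAB held in 10 of 16 alternatives, with adjusted p up to 0.16. After median-of-ratios scaling their MOLM-13 values were -0.12 (adjusted p = 0.19) and -0.11 (adjusted p = 0.17), no longer calls. HNRNPA1L2, a retrocopy of HNRNPA1 whose reads may be shared with it, had 86.5 and 24.2 TPM in the MOLM-13 shNS libraries, and its log2 fold change in MOLM-13, -0.31, was 0.59 without shNS replicate 1 and -1.21 without shNS replicate 3.

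HNRNPD, also called AUF1, binds AU-rich elements and speeds the decay of short-lived mRNAs, and HNRNPDL is its close relative, encoded next to it on chromosome 4 (82352498 to 82374503 and 82422564 to 82430408, both on the minus strand). HNRNPD stood at 299.9 and 342 TPM in NOMO-1 shALKBH5, against 544 and 539 TPM in NOMO-1 shNS, and at 175 and 164 TPM in MOLM-13 shALKBH5, against 417 and 384 TPM in MOLM-13 shNS. It fell in both lines with values of -0.76 (SE 0.10, adjusted p = 0.0021) and -1.24 (SE 0.10, adjusted p = 0.0005), and in all 16 alternatives in each. HNRNPDL stood at 109.7 and 126 TPM, against 179 and 174 TPM, in NOMO-1, and at 71.8 and 41.6 TPM, against 197 and 190.2 TPM, in MOLM-13 (shALKBH5 against shNS). HNRNPDL had the largest fitted fall of the 32 genes in MOLM-13, -1.80 (SE 0.24, adjusted p = 0.0023), against -0.58 (adjusted p = 0.094) in NOMO-1.

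The F and H proteins bind runs of G. HNRNPH1, the most abundant of the H type, stood at 376 and 431 TPM in NOMO-1 shALKBH5, against 581 and 579.9 TPM in NOMO-1 shNS, and at 307 and 254 TPM in MOLM-13 shALKBH5, against 576 and 573 TPM in MOLM-13 shNS. On the log2 scale HNRNPH1 fell by 0.53 in NOMO-1 (adjusted p = 0.015, and up to 0.099 over the alternatives) and by 1.04 in MOLM-13 (SE 0.12, adjusted p = 0.0015). HNRNPH3 stood at 84.7 and 95.3 TPM, against 157 and 157 TPM, in NOMO-1, and at 69.0 and 58.0 TPM, against 128 and 124 TPM, in MOLM-13 (shALKBH5 against shNS). It fell by 0.80 in NOMO-1 (SE 0.12, adjusted p = 0.0026) and by 0.98 in MOLM-13 (SE 0.12, adjusted p = 0.0015). HNRNPF stood at 326 and 356 TPM, against 571 and 573 TPM, in NOMO-1, and at 282 and 189.5 TPM, against 371 and 387 TPM, in MOLM-13 (shALKBH5 against shNS), and fell by 0.74 (adjusted p = 0.018) and 0.71 (adjusted p = 0.022), with adjusted p up to 0.1 and 0.11 over the alternatives. HNRNPH2, the X-linked member, was the rare one: it stood at 5.96 and 7.43 TPM, against 5.64 and 5.37 TPM, in NOMO-1, and at 1.91 and 2.30 TPM, against 4.03 and 4.19 TPM, in MOLM-13 (shALKBH5 against shNS). It fell in MOLM-13 (-0.72, adjusted p = 0.0076), a call lost after median-of-ratios scaling (adjusted p = 0.059), and its value in NOMO-1 was 0.24 (adjusted p = 0.2).

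HNRNPK, which binds runs of C, and HNRNPL, which binds CA repeats, were among the more abundant members. HNRNPK stood at 442 and 487 TPM in NOMO-1 shALKBH5, against 729 and 736 TPM in NOMO-1 shNS, and at 412 and 291 TPM in MOLM-13 shALKBH5, against 686 and 675 TPM in MOLM-13 shNS. HNRNPL stood at 340.2 and 374 TPM, against 593 and 596 TPM, in NOMO-1, and at 285 and 185 TPM, against 475 and 489 TPM, in MOLM-13 (shALKBH5 against shNS). Both fell in both lines, with adjusted p of 0.02 and 0.0055 for HNRNPK and of 0.024 and 0.0071 for HNRNPL in NOMO-1 and MOLM-13. In NOMO-1 these calls were lost when any 1 NOMO-1 library was left out, with adjusted p up to 0.12 for HNRNPK and 0.13 for HNRNPL, and in MOLM-13 with the line fitted alone (0.055 and 0.06). HNRNPLL, the paralogue of HNRNPL that acts on CD45 exons in lymphocytes, stood at 5.56 and 5.19 TPM in NOMO-1 shALKBH5, against 3.50 and 4.25 TPM in NOMO-1 shNS, and at 33.5 and 14.9 TPM in MOLM-13 shALKBH5, against 32.8 and 32.0 TPM in MOLM-13 shNS. It passed the test in neither line (0.39, adjusted p = 0.39, and -0.51, adjusted p = 0.26), and its MOLM-13 value rests on shALKBH5 replicate 3: without that library it was 0.05, and without replicate 1 it was -1.07. With NOMO-1 fitted alone by limma, HNRNPLL was called higher there (adjusted p = 0.04), as were 42.6% of all genes.

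HNRNPM and HNRNPR, which carry several RNA recognition motifs, and HNRNPU, a scaffold protein of nuclear chromatin, also fell in both lines. HNRNPM stood at 159.6 and 185 TPM in NOMO-1 shALKBH5, against 297 and 300.0 TPM in NOMO-1 shNS, and at 126 and 108 TPM in MOLM-13 shALKBH5, against 265 and 255 TPM in MOLM-13 shNS. Its values were -0.79 (SE 0.12, adjusted p = 0.0029) and -1.15 (SE 0.12, adjusted p = 0.00097). HNRNPR stood at 54.9 and 64.3 TPM, against 121 and 121 TPM, in NOMO-1, and at 28.9 and 19.2 TPM, against 62.4 and 60.0 TPM, in MOLM-13 (shALKBH5 against shNS). Its values were -1.01 (SE 0.19, adjusted p = 0.0071, and 0.057 without NOMO-1 shALKBH5 replicate 2) and -1.34 (SE 0.19, adjusted p = 0.003). HNRNPU stood at 245 and 284 TPM, against 439 and 449 TPM, in NOMO-1, and at 378 and 314 TPM, against 660.0 and 639 TPM, in MOLM-13 (shALKBH5 against shNS). Its groups did not overlap in either line, and its log2 fold changes were -0.75 (SE 0.12, adjusted p = 0.0043) and -0.91 (SE 0.12, adjusted p = 0.0025).

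Its relatives HNRNPUL1 and HNRNPUL2 have also been linked to DNA end resection. HNRNPUL1 stood at 278 and 305 TPM, against 406 and 415 TPM, in NOMO-1, and at 138 and 103 TPM, against 216 and 214 TPM, in MOLM-13 (shALKBH5 against shNS). HNRNPUL2 stood at 88.5 and 100.4 TPM, against 106 and 114 TPM, in NOMO-1, and at 38.3 and 28.3 TPM, against 57.7 and 56.5 TPM, in MOLM-13. HNRNPUL1 fell in both lines (-0.49, adjusted p = 0.034, and -0.85, adjusted p = 0.0055), and HNRNPUL2 fell in MOLM-13 (-0.77, adjusted p = 0.0097), with a value of -0.22 (adjusted p = 0.29) in NOMO-1. The HNRNPUL1 call held in 9 of 16 alternatives in NOMO-1 (adjusted p up to 0.17), and both MOLM-13 calls were lost with the line fitted alone (0.056 for HNRNPUL1 and 0.071 for HNRNPUL2). A readthrough gene, HNRNPUL2-BSCL2, shares exons with HNRNPUL2, so that level is uncertain. Of the HNRNPC-like copies, whose reads may belong to HNRNPC, HNRNPCL2 stood at 4.20 and 7.33 TPM, against 15.7 and 15.3 TPM, in NOMO-1 (-1.32, SE 0.24, adjusted p = 0.0059), and at 8.76 and 10.9 TPM, against 13.8 and 16.6 TPM, in MOLM-13 (-0.58, adjusted p = 0.095). HNRNPCL1 lay between 0.28 and 4.97 TPM in the 8 libraries and passed the test in neither line.

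The ratio of 2 members within a library stays the same where all its values are divided by the same factor, as in median-of-ratios scaling. Quantile scaling can change it. The pairs below were chosen after their values were seen, from genes of the same family, and are given as a description. SRSF9 stood at 1.85 and 1.71 times the level of SRSF1 in NOMO-1 shALKBH5, against 0.937 and 0.909 in NOMO-1 shNS, and at 4.36 and 5.15 times in MOLM-13 shALKBH5, against 1.94 and 1.92 in MOLM-13 shNS. In NOMO-1 the order of these genes was thus reversed: SRSF9 was above SRSF1 in both knockdown libraries and below it in both controls. SRSF6 stood at 1.14 and 1.13 times the level of SRSF3 in NOMO-1 shALKBH5, against 0.715 and 0.671 in NOMO-1 shNS, and at 1.14 and 1.14 times in MOLM-13 shALKBH5, against 0.762 and 0.741 in MOLM-13 shNS. SRSF6 was the more abundant of these genes in all 4 knockdown libraries and the less abundant in all 4 controls. SRSF8 stood at 0.0465 and 0.0504 of the level of SRSF2 in NOMO-1 shALKBH5, against 0.00951 and 0.011 in NOMO-1 shNS, and at 0.0464 and 0.0643 in MOLM-13 shALKBH5, against 0.021 and 0.0198 in MOLM-13 shNS.

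Among the hnRNP genes, HNRNPA0 stood at 0.293 and 0.252 of the level of HNRNPA1 in NOMO-1 shALKBH5, against 0.178 and 0.174 in NOMO-1 shNS, and at 0.119 and 0.119 in MOLM-13 shALKBH5, against 0.0549 and 0.06 in MOLM-13 shNS. HNRNPAB stood at 0.961 and 0.928 of HNRNPD in NOMO-1 shALKBH5, against 0.723 and 0.748 in NOMO-1 shNS, and at 0.994 and 0.892 in MOLM-13 shALKBH5, against 0.517 and 0.572 in MOLM-13 shNS. HNRNPLL stood at 0.0163 and 0.0139 of HNRNPL in NOMO-1 shALKBH5, against 0.00591 and 0.00713 in NOMO-1 shNS, and at 0.118 and 0.0804 in MOLM-13 shALKBH5, against 0.0691 and 0.0655 in MOLM-13 shNS. All 6 ratios were higher in each knockdown library than in each control library of the same line, by the way the pairs were chosen.

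**Figure D3:**
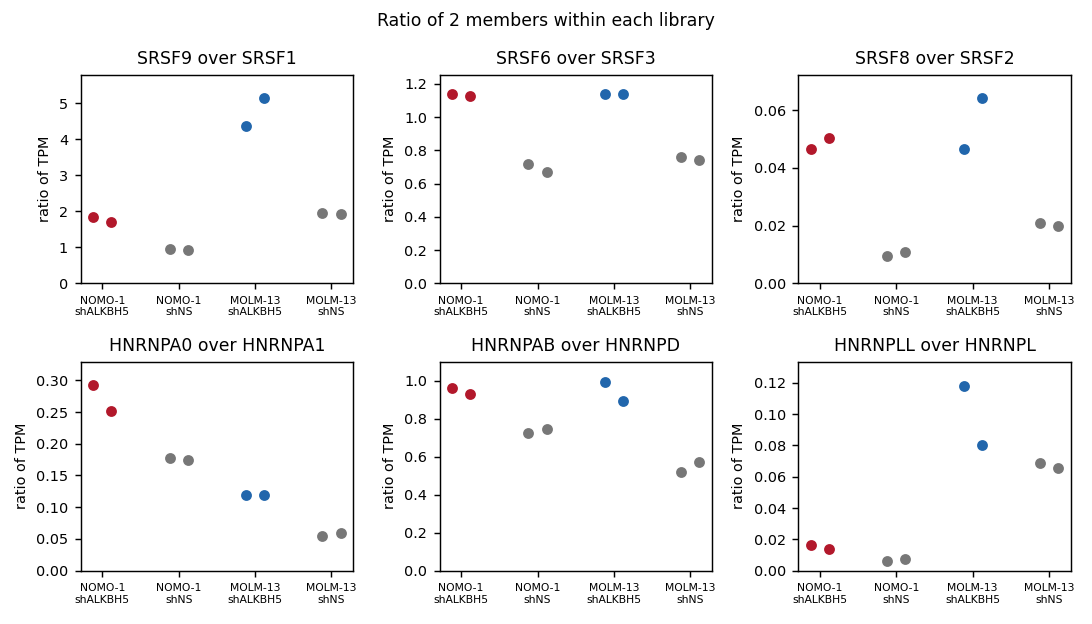
Ratio of the TPM of 2 members within each library (dots), for 6 pairs; knockdown groups are in colour and controls in grey, NOMO-1 left of MOLM-13. In each panel the knockdown dots lie above the control dots of their line, for example SRSF9 over SRSF1 at 1.85 and 1.71 against 0.937 and 0.909 in NOMO-1.

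The next comparison asked whether the knockdown effect differed between the lines, as the effect in NOMO-1 minus that in MOLM-13. On TPM as deposited, 9 of the 32 genes had a higher difference (against 29.7% of all genes), meaning less fall or more rise in NOMO-1. None had a lower one by limma's adjusted p (against 4.90%) or at an unadjusted p under 0.05. The median difference was 0.49 over the 32 genes and 0.42 over all genes, so the share called and the median were near the background. Median-of-ratios scaling moved the median difference of all genes by -0.44 and gave 4 higher and 4 lower calls among the 32 genes, against 18.4% and 17.4% of all genes. SRSF6, SRSF10, SRSF11 and HNRNPDL differed under both: SRSF11 by 0.92 (SE 0.16, adjusted p = 0.0097) and 0.41 after scaling (adjusted p = 0.032), SRSF10 by 1.16 and 0.67, HNRNPDL by 1.22 and 0.71, and SRSF6 by 1.11 and 0.59. The number of higher calls rose without either MOLM-13 shALKBH5 library and fell without any of the other libraries. The share of all genes called was not counted for these fits.

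The controls of the lines were compared as NOMO-1 shNS over MOLM-13 shNS. Of the 32 genes 11 were higher in NOMO-1 (against 40.6% of all genes) and 5 lower (against 19.2%). After median-of-ratios scaling, which moved the median of all genes by -0.26, 10 were higher and 9 lower, against 34.2% and 31.6%. HNRNPLL differed most: it stood at 3.50 and 4.25 TPM in NOMO-1 shNS, against 32.8 and 32.0 TPM in MOLM-13 shNS (log2 difference -2.78, SE 0.33, adjusted p = 0.00057). HNRNPA1 stood at 865 and 891 TPM, against 1841 and 1751 TPM (-1.03, SE 0.13, adjusted p = 0.00062). Also lower in NOMO-1 were SRSF8 (-0.67), SRSF9 (-0.48) and HNRNPU (-0.55), and among the genes higher in NOMO-1 were HNRNPAB (0.87, adjusted p = 0.00076), HNRNPUL1 (0.93, adjusted p = 0.0018), HNRNPUL2 (0.94, adjusted p = 0.0023) and HNRNPR (0.97, adjusted p = 0.005). The number higher fell most without either NOMO-1 shNS library or MOLM-13 shNS replicate 3. It rose without either MOLM-13 shALKBH5 library. The share of all genes called was not counted for these fits.

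Other genes of splicing were read from lists chosen by function, beside the shares over all genes: 15.0% lower and 28.6% higher in NOMO-1 and 31.2% lower and 10.6% higher in MOLM-13. With the median-of-ratios factors, which move all genes alike, these shares were 25.1% and 24.6% in NOMO-1 and 25.2% and 25.4% in MOLM-13. Among hnRNP proteins that go by other symbols, 6 of 15 were lower in NOMO-1 (40.0%) and 13 in MOLM-13 (86.7%), with medians of -0.43 and -0.80. PTBP1, hnRNP I, which represses exons through pyrimidine tracts, stood at 199 and 204 TPM in NOMO-1 shALKBH5, against 341 and 333 TPM in NOMO-1 shNS, and at 146 and 114 TPM in MOLM-13 shALKBH5, against 287 and 302 TPM in MOLM-13 shNS. It fell by 0.74 (adjusted p = 0.005) and 1.19 (adjusted p = 0.0011), and DAZAP1, TAF15 and RBMX, hnRNP G, also fell in both lines. None of these 15 genes was higher in either line by limma's adjusted p or at an unadjusted p under 0.05. Scaled by median of ratios, 14 were lower in NOMO-1, and 11 were lower and 1 higher in MOLM-13.

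Of 21 other proteins with an RS domain, 4 were lower and 1 higher in NOMO-1 (median -0.26), a share lower of 19.0%, near the 15.0% of all genes, and 15 were lower in MOLM-13 (71.4%, median -0.57), where none was higher, also at an unadjusted p under 0.05. With the median-of-ratios factors 14 were lower and 1 higher in NOMO-1, and 9 lower and 2 higher in MOLM-13. SRRM1, a splicing coactivator, fell by 1.12 (adjusted p = 0.0012) in NOMO-1 and by 1.16 (adjusted p = 0.0012) in MOLM-13. SREK1 stood at 39.1 and 41.6 TPM, against 37.3 and 38.1 TPM, in NOMO-1 shALKBH5 and shNS, and fell in MOLM-13, with 19.8 and 16.9 TPM in shALKBH5 against 43.8 and 42.3 TPM in shNS (-1.19, adjusted p = 0.00065). Of 11 genes for SR protein kinases and nuclear import, 3 were lower (27.3%) and 1 higher in NOMO-1 and 6 lower in MOLM-13 (54.5%), where none was higher, also at an unadjusted p under 0.05. With the median-of-ratios factors these were 4 lower and 1 higher in NOMO-1 and 3 lower and 1 higher in MOLM-13. SRPK1, which phosphorylates RS domains in the cytoplasm, fell by 1.03 (adjusted p = 0.004) and 1.18 (adjusted p = 0.0029), and TNPO1, the importer of hnRNP A1, by 0.75 (adjusted p = 0.021) and 1.80 (adjusted p = 0.0011).

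Of 20 other splicing regulators, 3 were lower (15.0%) and 5 higher (25.0%) in NOMO-1 (median 0.06), close to the shares over all genes, while in MOLM-13 13 were lower (65.0%, median -0.62) and none higher, also at an unadjusted p under 0.05. With the median-of-ratios factors 8 were lower and 5 higher in NOMO-1, and 11 lower and 1 higher in MOLM-13. MBNL3, a muscleblind protein, stood at 1.48 and 2.25 TPM in NOMO-1 shALKBH5, against 24.5 and 23.0 TPM in NOMO-1 shNS, and at 0.56 and 0.37 TPM in MOLM-13 shALKBH5, against 7.77 and 8.04 TPM in MOLM-13 shNS. It fell in both (-3.13, adjusted p = 0.00026, and -2.61, adjusted p = 0.00024). Its relative MBNL2 stood at 15.7 and 15.9 TPM, against 6.05 and 5.91 TPM, in NOMO-1 shALKBH5 and shNS, where it rose (1.27, adjusted p = 0.00053), and it fell in MOLM-13 (-0.53, adjusted p = 0.01, and 0.067 after median-of-ratios scaling). The core spliceosome held 58 tested genes, of which 19 were lower (32.8%) and 8 higher (13.8%) in NOMO-1 (median -0.05) and 31 lower (53.4%) and 1 higher in MOLM-13 (median -0.54). Scaled by median of ratios, these were 32 lower and 8 higher in NOMO-1 and 28 lower and 9 higher in MOLM-13. LSM5, a subunit of the Lsm ring of U6, stood at 14.8 and 17.5 TPM in NOMO-1 shALKBH5, against 84.0 and 87.5 TPM in NOMO-1 shNS, and at 5.25 and 3.94 TPM in MOLM-13 shALKBH5, against 39.2 and 34.8 TPM in MOLM-13 shNS. It fell in both (-2.34, adjusted p = 0.00034, and -2.77, adjusted p = 0.00019).

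Nonsense-mediated decay and the exon junction complex, which act on transcripts with poison exons, held 16 tested genes, of which 1 was lower and 1 higher in NOMO-1 (median 0.10). In MOLM-13 5 were lower and 1 higher (median -0.40), and the 5 lower make 31.2%, the same share as over all genes. With the median-of-ratios factors 4 were lower and 1 higher in NOMO-1 and 3 lower and 5 higher in MOLM-13, where the shares over all genes moved the same way. EIF4A3, the anchor of the exon junction complex, rose in NOMO-1, at 365 and 339 TPM in shALKBH5 against 198 and 197 TPM in shNS (0.83, adjusted p = 0.002), and stood at 172 and 145 TPM in MOLM-13 shALKBH5, against 133 and 142 TPM in MOLM-13 shNS. The annotation lists at least 1 transcript subject to nonsense-mediated decay for 22 of the 32 genes (68.8%), for all 11 SR genes and for 11 of the 21 hnRNP genes (52.4%), against 43% of 11921 tested protein-coding genes. SRSF7, for instance, has 6 such transcripts among 12. The deposited values are per gene, so poison-exon transcripts and coding transcripts were not separated here.

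**Figure D4:**
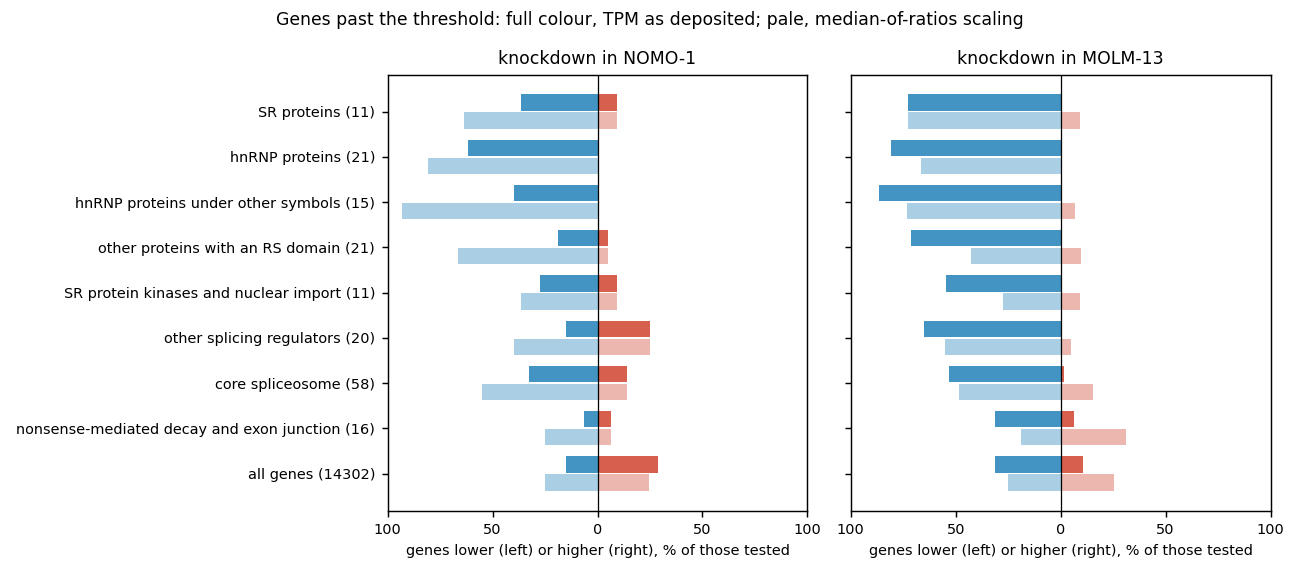
Share of tested genes past the threshold of 0.05 in each list (numbers of genes in parentheses), lower to the left and higher to the right of 0, in percent; full colour is TPM as deposited and pale colour is median-of-ratios scaling. In NOMO-1, 61.9% of the hnRNP genes and 36.4% of the SR genes are lower, against 15.0% of all genes; in MOLM-13 these are 81.0% and 72.7%, against 31.2%.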

How the data were processed

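The authors deposited 1 table of TPM for 26830 gene symbols and 8 libraries. The unit was read from the values, whose sum is the same in every column within rounding. The submitters' processing notes name STAR, RSEM and GRCh38, while no annotation, version or strand setting is recorded in them. Depth is lost in TPM, so no counting interval is given, and a rise of abundant transcripts lowers all other shares. All columns were mapped to samples by line, replicate number and the letters NS or E in their names. The names give no hairpin for E, which was read as shALKBH5, the group of each line other than shNS. ALKBH5 was lower in the E columns than in the NS columns of the same line.

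The 14302 genes that reached 1 TPM in 2 or more libraries were tested on log2(TPM + 1) with limma 3.58.1 in R 4.3.3: a mean for each of the 4 groups over all 8 libraries, an intensity trend, 4 residual and 2.29 prior degrees of freedom, two-sided p, Benjamini-Hochberg adjustment across all 14302 genes and a threshold of 0.05, for 4 comparisons. The fit was tested on simulated data with the same spread in every library and few changed genes. That test cannot show how the fit behaves where groups differ in spread, as they do here. Alternatives were a pseudocount of 0.1, no filter, a filter at 5 TPM, median-of-ratios and quantile scaling, each line alone, no trend, a replicate term for MOLM-13 and leaving out each library. Median-of-ratios scaling divides each column by the median ratio of its genes to their geometric mean.

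The genes and the lists were chosen with earlier results of these data known. By rule, all selected genes are accounted for, with full statistics for at most 10 per comparison by p. Of each list, at most 4 genes with the smallest p are given. The statistics of SRSF1, SRSF2, SRSF3, SRSF10 and HNRNPR outside these were added for the order by role. Gene positions and transcript types come from GENCODE release 29, promoter sequences from RefSeq.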

Additional observations from a re-analysis of the deposited data

Results flagged for a closer look

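In 9 genes the knockdown effect in NOMO-1 minus that in MOLM-13 passed the test of the difference itself (limma, TPM as deposited), all with the higher value in NOMO-1. They make 28.1% of the 32 genes tested, against 29.7% of all genes, and leaving out 1 library gave 0 to 27 such genes. HNRNPH2 differed by 0.96 (adjusted p = 0.014), with 0.24 in NOMO-1 and -0.72 in MOLM-13, and SRSF8 by 0.90 (adjusted p = 0.014), with 1.10 and 0.20. SRSF11 differed by 0.92 (adjusted p = 0.0097), SRSF10 by 1.16 and HNRNPDL by 1.22 (both adjusted p = 0.035), and SRSF6 by 1.11 (adjusted p = 0.042). HNRNPA1 differed by 0.60 (adjusted p = 0.044), HNRNPD by 0.48 (adjusted p = 0.045) and SRSF1 by 0.68 (adjusted p = 0.047). The median difference of all genes was 0.42. After median-of-ratios scaling SRSF6, SRSF10, SRSF11 and HNRNPDL still passed (adjusted p = 0.039, 0.028, 0.032 and 0.028), while HNRNPA1 (0.08), HNRNPD (-0.04), SRSF1 (0.17), HNRNPH2 (0.56) and SRSF8 (0.41) did not. Groups of 2 libraries are too small for a test of outlying samples.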

How the results depend on the processing

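The counts of genes called moved with the scaling, the filter, the fitting of a line alone and single libraries, and the cause was not tested. With 1 library left out, another filter, quantile scaling or a replicate block, the share of all genes called was not counted. These moves can therefore not be told from those of all genes. Higher calls in NOMO-1 numbered 2 with no filter and 4 with the line alone, against 1. In MOLM-13, 1 was higher with no filter and under either scaling, against none, and 15 were lower with the line alone, against 25. For the difference between lines, 3 were higher with no filter and 4 with median-of-ratios scaling, against 9, and 4 and 1 were lower with median-of-ratios and quantile scaling, against none. Between controls 9 were lower with median-of-ratios scaling, against 5. Leaving out 1 library gave 1 to 4 higher and 7 to 24 lower genes in NOMO-1, 0 higher and 18 to 29 lower in MOLM-13, 0 to 27 higher and 0 to 1 lower for the difference, and 7 to 19 higher and 4 to 6 lower between controls.

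Signs turned for SRSF6 in NOMO-1 (-0.10 with median-of-ratios scaling), for SRSF9 in MOLM-13 (0.20 with median-of-ratios and 0.10 with quantile scaling), for HNRNPA1L2 in MOLM-13 (0.01 and 0.03 with these scalings and 0.59 without shNS replicate 1, while it was -1.21 without shNS replicate 3), for HNRNPLL in MOLM-13 (0.05 without shALKBH5 replicate 3 and -1.07 without replicate 1) and for HNRNPD in the difference (-0.04 with median-of-ratios scaling), which had been past the threshold. With that scaling the signs of 15 genes in all turned in the difference, HNRNPD the only one of them past the threshold before, and of 8 genes between controls, none of them past it before. After it HNRNPA0 (-0.34), HNRNPAB (-0.47) and HNRNPH3 (-0.33) were called lower in the difference and HNRNPH1 (-0.29) and HNRNPK (-0.20) between controls. Of 511 values per gene and alternative in each line, 421 in NOMO-1 and 459 in MOLM-13 kept their direction and their side of the threshold.

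A replicate block could be fitted for MOLM-13 alone, whose groups share the numbers 1 and 3, and gave 1 higher and 20 lower in NOMO-1, 0 higher and 27 lower in MOLM-13, 12 higher and 0 lower for the difference, and 15 higher and 5 lower between controls. Samples with the same number deviated together with r = 0.131 across 8804 genes, but with 2 pairs and no label on pairing they share only a number. The unknown depth limits what can be said of genes near 1 TPM, such as SRSF12 and HNRNPCL1.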
